A study of Mus musculus with 4 samples.

Results

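Peaks from a pull-down of the RNA-binding protein Musashi-1 (Msi1) were described in 5 genes that are active in enterocytes, the absorptive cells of the intestine: Mgam, Sis, Lct, Vil1 and Clec2h. The genes were chosen from measured values, since peak positions in these same lists were known when they were proposed. A peak belonged to a gene when it lay on the gene's strand and overlapped a window of the mouse build mm9 drawn around that gene. By this rule 207 of the 240811 peaks in the 4 lists were members, 99 and 49 in the TRE-Msi1 lists (replicates 1 and 2) and 34 and 25 in the wild-type lists.

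CLIP-seq fixes a protein to the RNA under it with ultraviolet light, and an antibody, here against Msi1, then recovers both so that the RNA can be sequenced. The TRE-Msi1 libraries came from total intestinal epithelium of mice with the TRE-Msi1 genotype after 24 h of doxycycline, the drug that switches on TRE-driven transgenes. The wild-type libraries came from intestinal crypts of control mice, for which the labels used here give no doxycycline time. Per the protocols each group came from 2 mice, and each group has 2 libraries. The source of the activator that acts on the TRE element is not given in the labels used here. Genotype, the stated drug treatment and the cells taken changed together and cannot be told apart, and neither can more enterocytes and more of their RNA per cell. No background library is part of the comparison, so a peak is a called position and not a shown binding site.

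Enterocytes line the villi and arise from dividing cells in the crypts. Their apical surface carries the brush border, a dense array of microvilli in which digestive enzymes are anchored, and brush border transcripts are more abundant on villi than in crypts. Mgam, maltase-glucoamylase, and Sis, sucrase-isomaltase, release glucose from starch and sucrose, and Lct, lactase, splits milk sugar. Vil1, villin, bundles the actin filaments inside microvilli. Clec2h is a C-type lectin-like membrane protein from a family whose members bind NKR-P1 receptors. Musashi proteins bind short UAG-containing stretches of mRNA, often in the 3′ untranslated region, and are known as regulators of stem and progenitor cells.

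The windows were chr6:40578500-40719500 on the plus strand for Mgam, chr3:72692000-72772000 on the minus strand for Sis, and chr1:130181000-130225000 on the minus strand for Lct. Vil1 was taken as chr1:74455900-74482200 and Clec2h as chr6:128612000-128627200, both on the plus strand. They span 306.505 kb in all, and each is 124 to 708 bp longer than the RefSeq gene of that name in the later build GRCm38. No mm9 genome or annotation was used, so a peak's bases and its place in an exon, intron or untranslated region are not described. Distances are given to the 3′ edge of the window, which is not an annotated end of the RNA.

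The promoters of 3 hydrolase genes are shown because Cdx2, HNF1 and GATA factors are known activators of the Sis and Lct genes in enterocytes; peaks on RNA do not measure promoter use. The sequences are the 250 bases before the RefSeq gene start in GRCm38.p6, 5′ to 3′ on the gene's strand, at chr6:40628581-40628830 (plus), chr3:72967864-72968113 (minus) and chr1:128328319-128328568 (minus).
Mgam: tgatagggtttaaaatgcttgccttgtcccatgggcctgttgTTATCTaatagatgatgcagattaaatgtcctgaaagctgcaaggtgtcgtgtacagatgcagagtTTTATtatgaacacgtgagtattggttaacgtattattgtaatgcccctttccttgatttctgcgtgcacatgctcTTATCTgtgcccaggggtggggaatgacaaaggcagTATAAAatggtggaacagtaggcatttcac
Sis: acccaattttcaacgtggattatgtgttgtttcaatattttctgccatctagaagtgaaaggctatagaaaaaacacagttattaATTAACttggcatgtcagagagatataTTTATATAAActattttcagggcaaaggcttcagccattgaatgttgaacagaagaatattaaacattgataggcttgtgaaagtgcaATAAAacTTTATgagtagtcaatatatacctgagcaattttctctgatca
Lct: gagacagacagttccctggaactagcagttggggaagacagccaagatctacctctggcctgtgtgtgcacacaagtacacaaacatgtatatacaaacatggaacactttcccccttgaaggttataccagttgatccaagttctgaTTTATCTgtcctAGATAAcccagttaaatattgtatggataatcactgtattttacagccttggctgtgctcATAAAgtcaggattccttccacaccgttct
Capitals mark matches, on either strand, to a TATA box (TATAAA), a CDX core (TTTAT), an HNF1 half-site (GTTAAT) or a GATA site (AGATAA). The CDX core read on the other strand lies within the TATA box, so these matches can overlap. Mgam has a TATA box beginning 30 bases before the start, and in Lct a CDX core matches at the same distance. Lct also holds GATA matches 101 and 90 bases before the start, and Sis an HNF1 half-site 165 bases before it. Among 32851 RefSeq promoters, 12.4% hold the TATA box, 37.3% the CDX core, 6.43% the HNF1 half-site and 9.99% the GATA site. The Vil1 promoter holds none of the 4, and Clec2h only the CDX core.

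The lists differ in length and in form. They hold 189594 and 40776 peaks in TRE-Msi1 and 4863 and 5578 in wild-type libraries. TRE-Msi1 replicate 1 stands apart, with a median peak width of 40 bp against 74 to 75 bp in the other 3 lists and with 70.8% of its peaks on the plus strand against 50.9% to 51.5%. Read numbers are unknown, and the score attached to each peak is the authors', in a unit the files do not state. Scores were used only to rank peaks within a list, as a percentile where 100 is the top. In wild-type replicate 1 every score is 0 and the order of rows stood in for it. Some intervals are listed more than once with different scores, and each row was counted as a peak.

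All values below are descriptions without a test, because the peak positions that chose the genes are also what is counted. In addition, 2 libraries against 2 leave the spread within a group poorly known.

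The member windows held more peaks in the TRE-Msi1 lists than in the wild-type lists, yet they took a larger share of the wild-type lists. Peak numbers averaged 74.0 ± 35.4 in TRE-Msi1 and 29.5 ± 6.36 in wild-type libraries (SD, n = 2 each), a 2.39-fold ratio of geometric means or a log2 difference of 1.26. Leaving out TRE-Msi1 replicate 1 made that difference 0.75. Over the same libraries the whole lists differed 16.9-fold. Per 10000 peaks of its list, a TRE-Msi1 library therefore had 5.22 and 12.0 member peaks, against 69.9 and 44.8 in wild-type libraries. Read this way the groups also did not overlap, with the order turned round and a log2 difference of -2.82.

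Mgam, the longest window, held 40 and 20 peaks in TRE-Msi1 and 9 and 10 in wild-type libraries. Both TRE-Msi1 lists were above both wild-type lists, with means of 30.0 ± 14.1 and 9.5 ± 0.707 (SD, n = 2 each). Per 10000 list peaks the values were 2.11 and 4.90 in TRE-Msi1, against 18.5 and 17.9 in wild-type libraries. Sis held 42 and 9 peaks in TRE-Msi1 and 17 and 9 in wild-type libraries, so its groups overlapped. The means were 25.5 ± 23.3 in TRE-Msi1 and 13.0 ± 5.66 in wild-type libraries (SD, n = 2 each), and TRE-Msi1 replicate 2 had as many peaks as wild-type replicate 2. Wild-type replicate 2 lists 1 Sis interval 2 times, so in distinct intervals the 2 libraries had 9 and 8. Lct, the remaining disaccharidase, was almost without peaks. It held 1 and 0 in TRE-Msi1 and 0 and 2 in wild-type libraries. The single peak of TRE-Msi1 replicate 1 is 1.10 times what the average density of that list gives for a window of this length, and the 2 peaks of wild-type replicate 2 are 44.0 times.

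Vil1, the structural protein among the 5, held 5 and 10 peaks in TRE-Msi1 and 3 and 4 in wild-type libraries. Its groups did not overlap, and here replicate 2 was the higher TRE-Msi1 library. Clec2h held 11 and 10 peaks in TRE-Msi1 and 5 and 0 in wild-type libraries. The wild-type libraries thus disagreed for this gene, and the TRE-Msi1 libraries were nearly equal, with means of 10.5 ± 0.707 and 2.5 ± 3.54 (SD, n = 2 each).

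In 3 of 5 genes (Mgam, Vil1 and Clec2h) both TRE-Msi1 lists held more peaks than both wild-type lists. The same was true of 15.2% of the 50 kb strand-specific stretches of the genome that hold a peak in any list, and of 39.4% of those with a wild-type peak. Mgam and Clec2h were chosen by peaks of both TRE-Msi1 lists without a wild-type overlap, so part of this count restates the choice. Of the genes not chosen that way, Vil1 met the condition and Sis and Lct did not. In 3 of 5 genes (Mgam, Sis and Vil1) both TRE-Msi1 lists gave a smaller share of their peaks to the window than both wild-type lists. That held in 85.5% of the stretches with a peak in both wild-type lists, so the smaller share is the usual state of such regions and not particular to these genes. Lct and Clec2h each lack a peak in 1 wild-type list, so only Mgam, Sis and Vil1 meet the condition of that share. The plot of peak numbers by gene shows both readings.

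**Figure D1:**
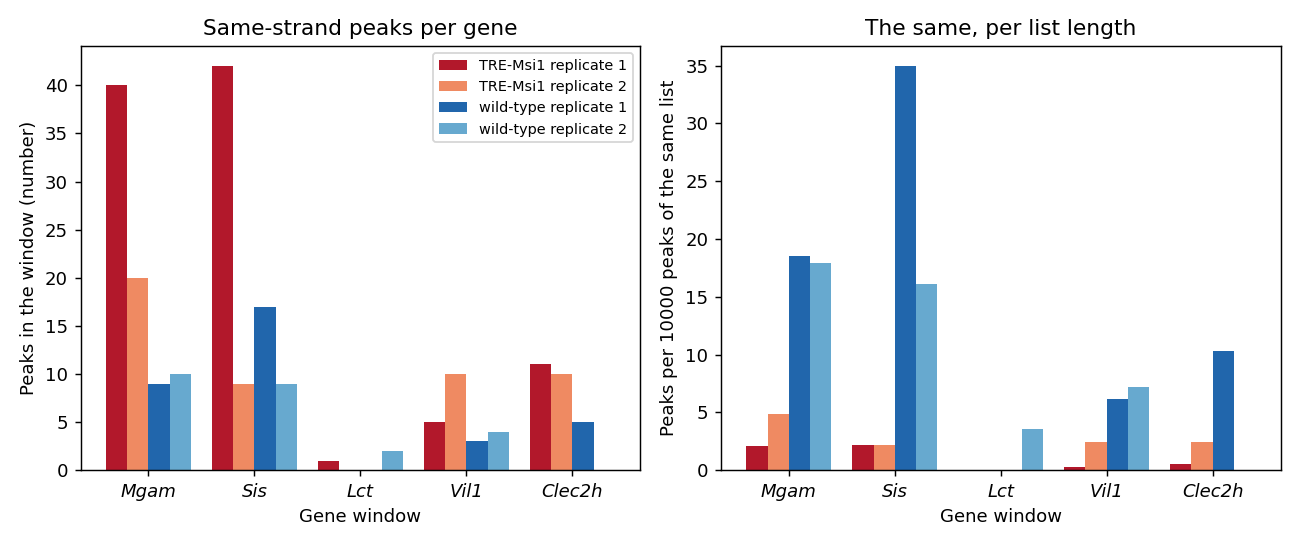
Same-strand peaks in each gene window (left, number of peaks) and per 10000 peaks of the same list (right), 1 bar per library. Mgam has 40 and 20 peaks in the TRE-Msi1 libraries (red and orange) against 9 and 10 in the wild-type libraries (dark and light blue), and per list length the order turns to 2.11 and 4.90 against 18.5 and 17.9.

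Per length, each window that held a peak was denser than its list at large, with Lct in TRE-Msi1 replicate 1 the closest to it. Clec2h was the densest in both TRE-Msi1 libraries, at 0.724 and 0.658 peaks per kb, and in wild-type replicate 1 at 0.329. Sis came next in TRE-Msi1 replicate 1, at 0.525 peaks per kb, and in wild-type replicate 1, at 0.212. Against the average density of its own list, Mgam stood 5.67-fold and 18.1-fold higher in TRE-Msi1 libraries, and 67.5-fold and 66.2-fold higher in wild-type libraries. Vil1 stood 3.80-fold and 48.4-fold higher in TRE-Msi1, and 120.7-fold and 142.0-fold higher in wild-type libraries. Untranscribed regions are part of these averages.

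The strand opposite the genes served as the background. It held 4 and 0 peaks in the TRE-Msi1 windows and 0 and 0 in the wild-type windows, against 99 and 49, and 34 and 25, on the genes' own strand. An even spread of each list would have put 9.96 and 2.36 peaks there in TRE-Msi1 and 0.279 and 0.322 in wild-type libraries. All 4 peaks were on the plus strand of Lct in TRE-Msi1 replicate 1. Stretches of equal length on both sides of the windows held 41 and 13 peaks of the same strand in TRE-Msi1 and 2 and 2 in wild-type libraries. Of these, 16 and 9 in TRE-Msi1 and 2 and 2 in wild-type libraries lay downstream of Mgam. The next gene on that side in GRCm38 is Mgam2-ps, and whether these peaks lie in it was not determined.

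Toward the 3′ end the peaks were denser in each of the 4 libraries. In wild-type replicate 2 this rested on 1 peak in Lct and 1 in Vil1. The last 2 kb of the 5 windows held 18 and 8 peaks in TRE-Msi1 and 8 and 2 in wild-type libraries. As a share of member peaks this was 18.2% and 16.3% in TRE-Msi1 and 23.5% and 8.0% in wild-type libraries, where an even spread would give 3.26%. That even share runs over the whole windows, in which exons and introns were not told apart. Mean shares were 17.3% ± 1.31 in TRE-Msi1 and 15.8% ± 11.0 in wild-type libraries (SD, n = 2 each), and the wild-type values lie on both sides of the TRE-Msi1 ones. This depends on list length: among the 4863 best peaks of each list, 8 of 13 and 8 of 15 member peaks lay there in TRE-Msi1 (61.5% and 53.3%), against 8 of 34 and 2 of 25 in wild-type libraries (23.5% and 8.0%). The cut keeps high-ranked peaks, and Mgam and Clec2h were chosen by such peaks, so part of this contrast restates the choice. It removed no wild-type member peak, so top-ranked TRE-Msi1 peaks are set against all wild-type member peaks. In TRE-Msi1 replicate 2 the 8 include 2 intervals listed 2 times each. In the top 25% of each list the mean share was 32.4% in TRE-Msi1 and 22.7% in wild-type libraries. Density in the last 2 kb was 6.59 and 5.79 times that of the rest in TRE-Msi1, and 9.12 and 2.58 times in wild-type libraries.

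The earlier look at these data had ranked peaks shared by both TRE-Msi1 lists without an overlapping wild-type peak. Clec2h and Mgam hold places 5 and 7 among the 1471 such peaks, and the other 3 genes hold none. In TRE-Msi1 replicate 2 the peaks at these places are chr6:128626093-128626167 in Clec2h and chr6:40718930-40719004 in Mgam, both within 2 kb of the edge. Without those 2 genes the share within 2 kb was 12.5% and 10.5% in TRE-Msi1 and 15.0% and 13.3% in wild-type libraries, against an even share of 3.99%. For the lists cut to 4863 peaks, the share without those 2 genes was not computed. Of the 13 and 15 TRE-Msi1 member peaks left in the cut lists, Clec2h held 5 and 7, and Mgam 3 and 5.

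Best-ranked peaks were often near the 3′ edge, though in Sis and Clec2h they were not the 3′-most peak in any library. A gene had at least 1 peak in 17 of 20 gene and library pairs, a peak within 1 kb of the edge in 14 of those 17, and its best-ranked peak there in 9. The best-ranked peak was itself the one nearest the edge in 7 of 17 pairs. The median percentile of peaks in the last 2 kb was 96.6 and 96.9 in TRE-Msi1 and 96.7 and 76.1 in wild-type libraries. Peaks in the rest of the windows had medians of 72.3 and 68.7 in TRE-Msi1 and 78.1 and 73.3 in wild-type libraries. Wild-type replicate 2 is the exception, with 2 peaks in the last 2 kb. Part of this restates how Mgam and Clec2h were chosen. Without those genes, the last 2 kb had medians of 90.3 and 94.4 in TRE-Msi1 and 94.6 and 76.1 in wild-type libraries. The rest then had medians of 74.7 and 57.5 in TRE-Msi1 and 80.7 and 66.5 in wild-type libraries.

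**Figure D2:**
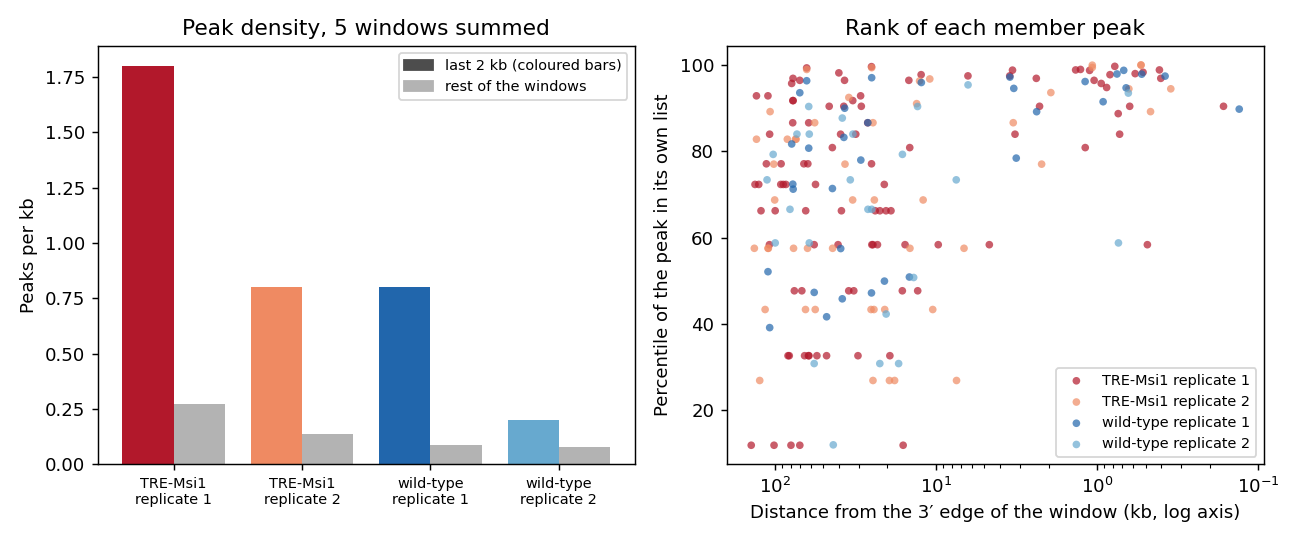
Left, peaks per kb in the last 2 kb of the 5 windows (coloured bars) and in the rest (grey bars) of each library. Right, the percentile of each member peak in its own list against its distance from the 3′ edge on a log axis, with 1 colour per library. Most peaks of the last 2 kb sit near the top, with medians of 96.6 and 96.9 in TRE-Msi1 and 96.7 and 76.1 in wild-type libraries. Without Mgam and Clec2h, which were chosen by high-ranked peaks there, the medians were 90.3 and 94.4, and 94.6 and 76.1.

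In Mgam the peak nearest the 3′ edge lay 382 and 496 bp from it in TRE-Msi1, and 646 and 6286 bp from it in wild-type libraries. The best-ranked Mgam peak of TRE-Msi1 replicate 2, at chr6:40718930-40719004, is number 38 of its list. Mgam was chosen by this peak, so its rank restates the choice. In TRE-Msi1 replicate 1 the best-ranked peak lay 756 bp from the edge and in wild-type replicate 1 it lay 646 bp from it, so in 3 libraries the leading Mgam position lay within 1 kb of the window's 3′ edge. The joined stretch, chr6:40718705-40719004, reaches percentiles of 99.6 and 99.9 in TRE-Msi1 and 98.7 in wild-type replicate 1, and no peak of wild-type replicate 2 lies in it.

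Vil1 had its nearest peak 144 and 311 bp from the edge in TRE-Msi1 and 94 and 602 bp in wild-type libraries. It was the only gene of the 5 with a peak within 1 kb of the edge in all 4 libraries. Its stretch at chr1:74481771-74481889 has percentiles of 98.8 and 94.4 in TRE-Msi1 and 97.3 in wild-type replicate 1. Clec2h peaks came within 498 and 428 bp of the edge in TRE-Msi1 and within 491 bp in wild-type replicate 1. The best of them, chr6:128626093-128626167 in TRE-Msi1 replicate 2, is number 60 of its list and lies 1033 bp from the edge. Clec2h was likewise chosen by this peak.

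Sis differed from these genes in where its best peak lay. Its nearest peaks were 467 and 597 bp from the edge in TRE-Msi1, and 623 and 16120 bp in wild-type libraries. The best-ranked Sis peak lay 63492 and 63441 bp from the edge in TRE-Msi1, and 63472 and 61615 bp in wild-type libraries. Both groups thus have their leading Sis position in the 5′ part of the window, at chr3:72755441-72755545 in 3 libraries, with percentiles of 99.2 and 98.9 in TRE-Msi1 and 96.3 in wild-type replicate 1. For Lct, the TRE-Msi1 replicate 1 peak stood at percentile 11.96 and lay 15970 bp from the edge. The wild-type replicate 2 peak nearest the edge, at 699 bp, stood at percentile 58.75.

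Not every 5′ part was empty. Cut into 3 equal parts, given from the 3′ end, the windows held 43, 28 and 28 peaks in TRE-Msi1 replicate 1 and 18, 3 and 28 in TRE-Msi1 replicate 2. Wild-type replicates 1 and 2 held 20, 4 and 10, and 12, 4 and 9. TRE-Msi1 replicate 2 is the one list with more peaks in the 5′ part than in the 3′ part.

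**Figure D3:**
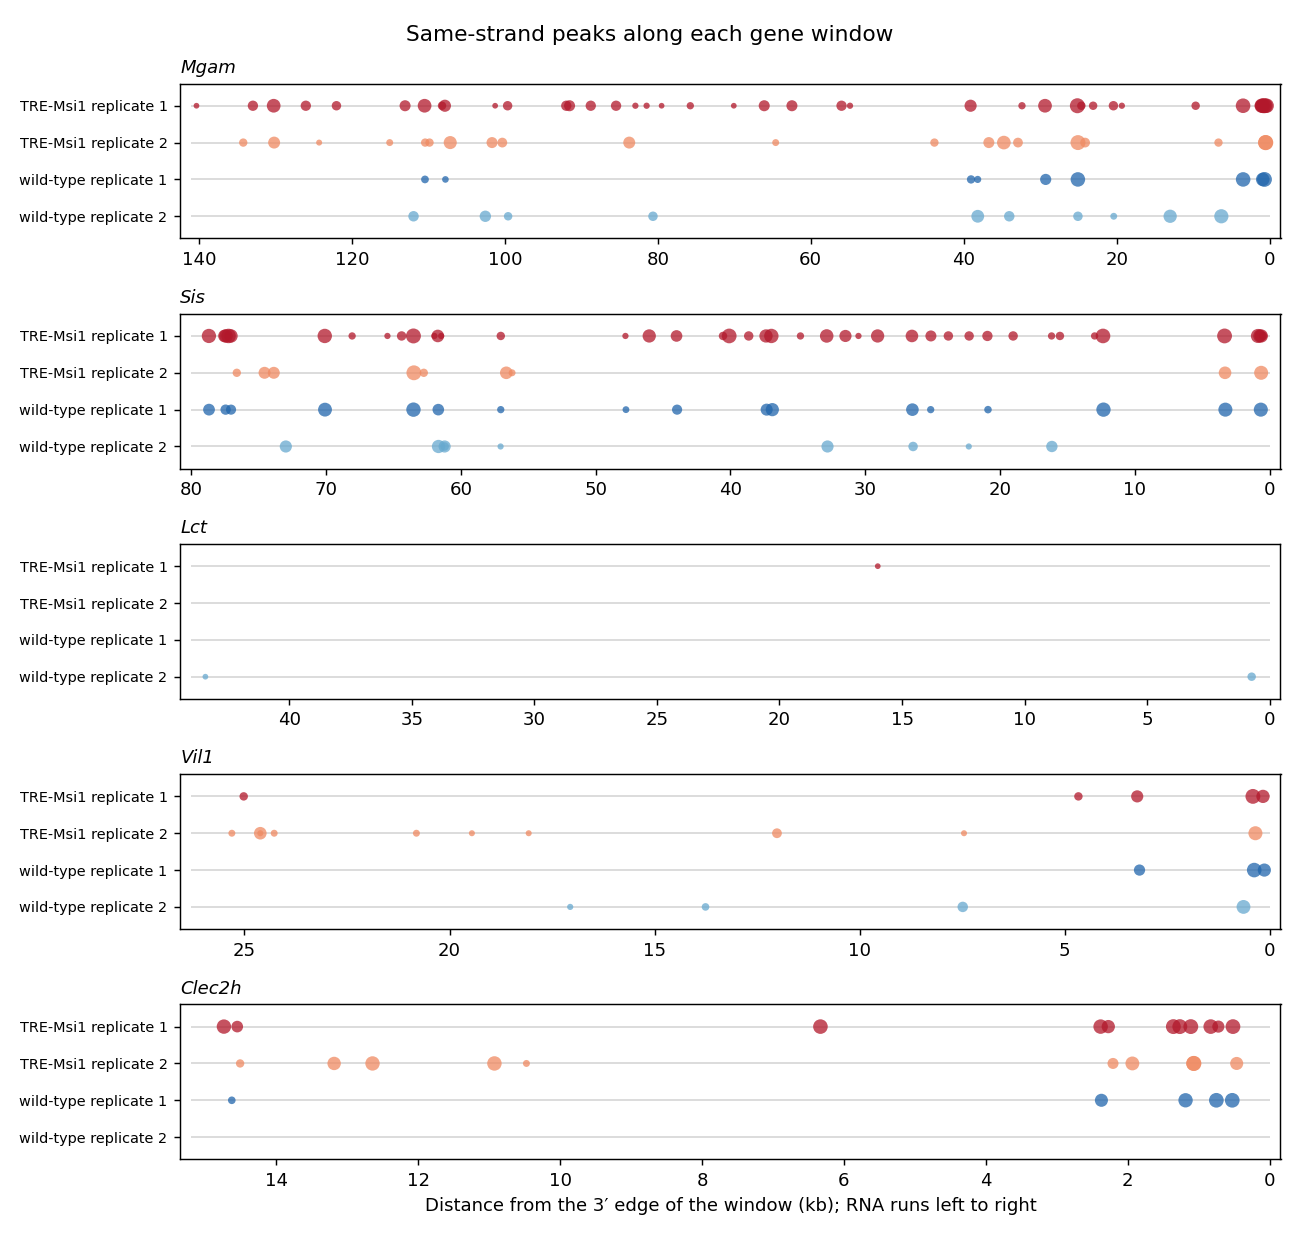
Same-strand peaks along the 5 windows, with 1 row per library and distance from the 3′ edge in kb on the horizontal axis; larger points rank higher in their own list. Peaks gather at the right end of Mgam, Vil1 and Clec2h, Sis has large points near 63 kb, and Lct is almost empty with 1 and 0 peaks in TRE-Msi1 and 0 and 2 in wild-type libraries.

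Just outside the windows, the first same-strand peak beyond the 3′ edge of any list was 462 bp away for Vil1, in TRE-Msi1 replicate 1, and 9390 to 17293 bp away for the other 4 genes. Just inside, the nearest peak of any list lay 382 bp from the edge in Mgam, 467 in Sis, 699 in Lct, 94 in Vil1 and 428 in Clec2h.

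Most positions came from 1 library. Joining same-strand peaks at most 50 bp apart gave 141 positions: 61 in Mgam, 48 in Sis, 16 in Vil1, 13 in Clec2h and 3 in Lct. Of these, 100 came from 1 library, 27 from 2, 13 from 3 and 1 from all 4. Both groups were present at 39 positions, only TRE-Msi1 at 88 and only wild-type at 14. Both TRE-Msi1 libraries shared 12 positions, and 1 of them, chr6:40589271-40589387 in Mgam, had no wild-type peak joined to it. Joining is a looser rule than the overlap used for the ranked peaks above: it adds wild-type peaks that overlap neither TRE-Msi1 peak, as in Clec2h, and the TRE-Msi1 peaks of this Mgam position lie side by side without overlapping.

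The position found in all 4 libraries is chr6:40694338-40694471, inside Mgam and 25029 bp from its 3′ edge. Its percentiles were 99.5 and 99.3 in TRE-Msi1 and 97.0 and 66.5 in wild-type libraries. Within 2 kb of an edge, 8 of 17 positions came from at least 2 libraries (47.1%), and farther away 33 of 124 did (26.6%). Part of this restates how Mgam and Clec2h were chosen, and without them the counts were 3 of 7 (42.9%) and 21 of 60 (35.0%).

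Clec2h had 4 of its 13 positions in both TRE-Msi1 libraries and wild-type replicate 1. They run from chr6:128612536-128612727 at the 5′ edge to chr6:128626636-128626772 at the 3′ edge. In Sis, 20 of 48 positions came from at least 2 libraries, the largest number of any of the 5 genes. Of these, 17 combined TRE-Msi1 replicate 1 and wild-type replicate 1, and the rest combined TRE-Msi1 replicate 1 and wild-type replicate 2. Both TRE-Msi1 libraries were present at 3 positions, all of them among the 17. The Sis stretch at chr3:72692597-72692758, 597 bp from the edge, had percentiles of 90.3 and 94.4 in TRE-Msi1 and 94.6 in wild-type replicate 1. The 3 Lct positions came from 1 library each.

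Wild-type replicate 1 and TRE-Msi1 replicate 1 were the closest pair, across the groups rather than within one. Of the 34 member peaks in wild-type replicate 1, 33 had a TRE-Msi1 replicate 1 peak within 100 bp (97.1%), against 66.2% of all peaks in that list. The single exception was in Mgam, where it was 8 of 9. For TRE-Msi1 replicate 2 the same share was 28.6% of its 49 member peaks, against 11.3% of its list. Part of this difference restates how Mgam and Clec2h were chosen. Between the wild-type lists the share was 14.7% of replicate 1 member peaks, close to the 13.2% of its whole list. It was 20.0% of replicate 2 member peaks, against 11.4%. Lists of unequal length give unequal chances of a neighbour, and TRE-Msi1 replicate 1 is the longest by far, so shares in different columns are not comparable.

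**Figure D4:**
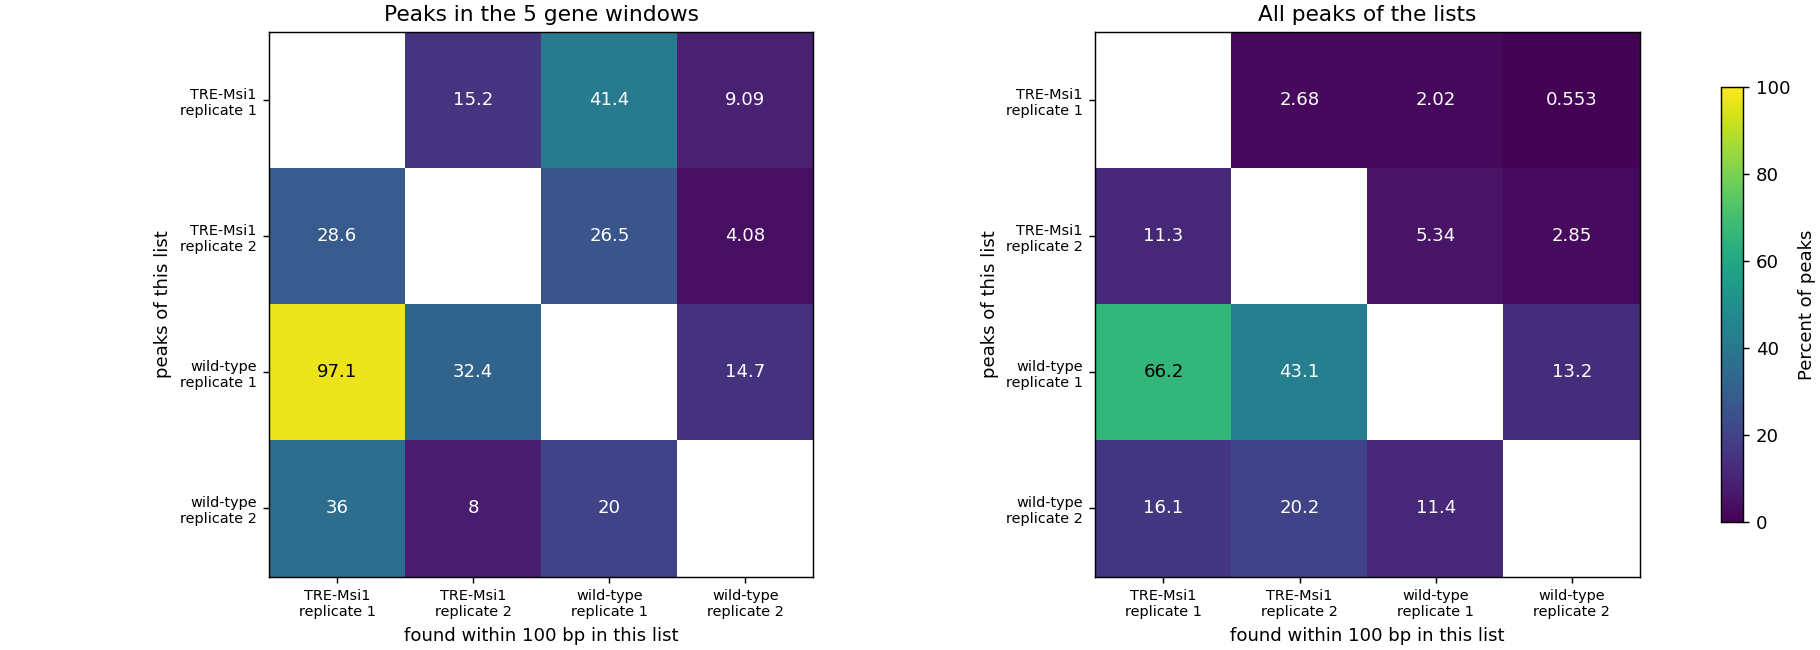
Percent of the peaks of 1 list (rows) with a same-strand peak within 100 bp in another list (columns), for the peaks of the 5 gene windows (left) and for all peaks (right). Wild-type replicate 1 peaks have a TRE-Msi1 replicate 1 neighbour in 97.1% of cases in the windows and 66.2% over the whole list.

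Required overlap changed the level but left the same closest pair. With at least 1 bp in common, 7 of 99 TRE-Msi1 replicate 1 and 9 of 49 TRE-Msi1 replicate 2 member peaks overlapped the other TRE-Msi1 list. That is 7.07% and 18.4%, against 1.18% and 5.67% of the whole lists. Mgam and Clec2h were chosen for such shared peaks, so part of this restates the choice. Mgam gave 1 of the 7 and 2 of the 9, Clec2h 3 and 4, and Sis 3 and 3. In TRE-Msi1 replicate 2 the interval that chose each of Mgam and Clec2h is listed 2 times, and both rows count among the 9. The scores of these rows are 100 and 88 in Mgam and 80 and 39 in Clec2h. Of the 49, 8 overlapped a wild-type peak. In the other direction, 24 of 34 wild-type replicate 1 peaks overlapped TRE-Msi1 replicate 1 (70.6%, against 43.1% of its list), and in Sis alone 15 of 17 did. Where those 2 lists overlapped, the median offset of the TRE-Msi1 centre from the wild-type one was -21.5 bp in the windows and -22.0 bp over all peaks, where negative is upstream, so the offset was not particular to these genes.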

How the data were processed

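Msi1 CLIP-seq of mouse intestinal cells gave 4 deposited peak lists, 1 per library, in 2 groups read from the sample titles. Bowtie (a read aligner), HOMER (which includes a peak finder) and build mm9 were used, per the submitters' processing notes; versions, settings and read numbers were not given in the sources used here. Peaks were therefore called by the authors per library and not on pooled samples. The authors' score is deposited per peak with no stated unit, and was used only for ranks within a list. Row order, used for the list whose scores are all 0, followed the score closely elsewhere, with a rank correlation of -0.99 and -0.91 in TRE-Msi1 replicates 1 and 2 and -0.96 in wild-type replicate 2, across peaks.

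A member peak overlapped a gene window by at least 1 bp on its strand. Coordinates are 1-based. Evenly spread counts used the mean density of each list on each strand. The genes, windows and lists were chosen with earlier results of these data known, and no test was run. All 5 genes were named, with each library's best-ranked and 3′-most peak and positions joined within 50 bp. Planned counts of other brush border genes and of cell type markers need an mm9 annotation and were not made. RefSeq (GRCm38.p6) gave gene lengths, neighbours and promoters, matched by symbol for 5 of 5 genes. The counting code was tested on simulated lists and against a direct comparison of the TRE-Msi1 member peaks of each gene, where 0 of 9 checks differed. Alternatives covered list length, window edge, overlap rule, strand, tile size and each library left out. Python 3.11.15, numpy 2.4.6, pandas 2.3.3 and matplotlib 3.10.9 were used.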

Additional observations from a re-analysis of the deposited data

Results flagged for a closer look

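Peaks on the strand opposite the genes were outside the main count. In Lct, 4 such peaks were called in TRE-Msi1 replicate 1 and none in the other 3 libraries, against an evenly spread count of 2.20 for that strand in that list. Their scores are 1.5, 2.9, 1.5 and 1.5, where 1.5 is the lowest score of the list, and 70.8% of this list lies on the plus strand, as these 4 peaks do. The part of that strand surplus in this count was not tested.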

How the results depend on the processing

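Of 57 alternatives, 32 left a value near the reported one, 23 moved it and 2 reversed it. The log2 difference in member peak number, 1.26, became -1.06 when every list was cut to its 4863 best peaks and -2.82 per list length, so its direction depends on whether list length is allowed for. With lists cut, the windows held 13 and 15 peaks in TRE-Msi1 and 34 and 25 in wild-type libraries, and 0 genes kept both TRE-Msi1 lists above both wild-type lists. Leaving out each library gave log2 differences of 0.75 to 1.76 and 3 to 4 such genes. With the replicate number as a block, the difference stayed 1.26, with pairs of 1.54 and 0.97.

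The mean TRE-Msi1 share of peaks at the 3′ end, 17.3%, was 32.4% in the top 25% of each list and 57.4% in lists cut to equal length, where the wild-type share was 22.7% and 15.8%. Both cuts keep high-ranked peaks, and Mgam and Clec2h were chosen by such peaks, so part of this contrast restates the choice. The cut to equal length also removed no wild-type member peak. The TRE-Msi1 share was 15.6% with identical intervals counted once and 15.6% with neighbouring peaks merged. It was 11.7% within 1 kb, 22.3% within 5 kb, 19.8% in the last 10% of each window, 19.3% measured from the 3′-most peak, 20.8% as a mean over genes, and 11.5% without Mgam and Clec2h, an alternative chosen after seeing the data, as was the count of recurring positions without them. The wild-type share, 15.8%, was 28.7% as a mean over genes.

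TRE-Msi1 replicate 2 peaks found in replicate 1, 9 in number, were 1 under reciprocal overlap of 50%, 14 within 100 bp and 23 within 500 bp. Median widths are 40 bp in replicate 1 and 75 bp in replicate 2, so the reciprocal rule asks for nearly all of the narrower peak. With all peaks resized to 75 bp the count was 12. Those found in a wild-type list, 8, were 7 under reciprocal overlap of 50%, 14 within 100 bp, 18 within 500 bp, 8 resized and 5 with lists cut. The opposite-strand count of 4 became 29 in the flanks, and 58 on the flanks' gene strand. The share of stretches of the genome, 15.2%, was 9.08% at 20 kb, 23.0% at 100 kb and 25.3% with strands pooled. Depth is unknown, and with 2 libraries a group the spread is poorly known.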
